A study of Mus musculus with 15 samples.

Results

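The collagens are the genes whose symbol is Col, a type number, the letter a and a chain number, as in Col1a1. Of 22180 genes with a probe set of their own on the array, 44 carried such a symbol, and all 44 are described. By the class of protein they encode, 11 were fibrillar, 6 formed basement membranes, 9 were fibril-associated collagens with interrupted triple helices (FACIT), 6 were type VI chains of beaded filaments and 3 were short-chain network collagens. The others were 1 anchoring fibril chain, 2 multiplexins, 4 transmembrane collagens and 2 outside these classes, Col26a1 and Col28a1.

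RNA of whole mouse eyes was hybridised to 15 Affymetrix Mouse Gene 2.1 ST arrays, to ask how the eye transcriptome of Huntington's disease (HD) models differs from that of wild type (WT) littermates. R6/1 and R6/2 mice are fragment models of HD, transgenic for exon 1 of a mutated HTT gene on a C57BL/6J background, and the promoter of the transgene is not given in the sources used here. R6/1 mice, with 131 ± 3.1 (SD) CAG repeats, were taken at 6 months of age (3 arrays), and their C57BL/6J littermates at the same age (4 arrays). R6/2 mice, with 162 ± 2.8 (SD) CAG repeats, were taken at 9 weeks of age (4 arrays), and their C57BL/6J littermates at the same age (4 arrays). Both lines were at a symptomatic stage. Each of the 15 samples was a pool of RNA by the methods, and the labels do not say of which animals, so the errors and p-values measure the spread between these samples only.

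Collagens are mostly secreted proteins built of 3 chains wound into a triple helix, and they make up most of the fibrous matrix of the cornea, sclera, vitreous and tendon. Fibrillar collagens give tensile strength, FACIT collagens sit on the surface of fibrils, and type IV collagens form the sheet of basement membranes such as the lens capsule and Bruch's membrane. Beaded filaments of type VI collagen link cells to the surrounding fibrils. New chains are hydroxylated and folded in the endoplasmic reticulum, trimmed outside the cell, crosslinked by lysyl oxidases, and spaced by small leucine-rich proteoglycans.

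Some arrays stood apart from their group. Opn1sw, the short-wavelength cone opsin, read 2.51 to 3.01 in R6/1 arrays, against 7.46 to 7.84 in WT replicates 1, 2 and 3 but 3.48 in WT replicate 4 at 6 months, so the R6/1 results are also given without the array labelled WT replicate 4. The methods give 4 R6/1 and 3 WT samples at 6 months, whereas the labels give 3 and 4. Elovl3, a lipid enzyme abundant in the Harderian gland behind the eye, read 9.11 and 9.51 in WT replicates 2 and 4 at 9 weeks, against 6.04 and 1.64 in WT replicates 1 and 3. In R6/2 arrays it read 7.14 in replicate 4 and 1.86 to 3.04 in the other 3. The interquartile range of the log2 values was 2.17, 2.26 and 2.43 in WT replicate 3 at 6 months, R6/1 replicate 3 and WT replicate 3 at 9 weeks, and up to 2.61 in the other arrays. The mean of 3 lens markers was 8.34 to 9.08 and that of 3 retina markers 7.42 to 9.54 over the arrays.

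Values are log2 expression after robust multiarray averaging (RMA), so a difference of 1 is a 2-fold difference. Genes were tested if their interquartile range over the 15 arrays was in the upper 50%, which left 11090 genes and 33 of the 44 collagens. A gene was called at p under 0.05 with a Benjamini-Hochberg adjusted p under 0.20, the threshold of the study, in limma's moderated test with 1 fit over all 4 groups. The 11 collagens not tested were Col2a1, Col5a2, Col24a1, Col4a3, Col4a4, Col4a5, Col22a1, Col6a4, Col6a5, Col6a6 and Col7a1.

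In eyes of R6/2 mice at 9 weeks, 1 of the 33 tested collagens was called higher and 0 were called lower, against 0.0721% of all tested genes called higher and 0.0992% called lower. The called gene was Col12a1, which encodes a FACIT chain that coats type I fibrils in cornea, sclera and tendon. Both chains of type I collagen, the main fibrillar collagen of cornea and sclera, stood above WT by 1.75-fold (Col1a2) and 1.70-fold (Col1a1) without passing the test. Over all 44 collagens the log2 fold change was above 0 for 38 and below 0 for 6, with a median of 0.137, against a median of 0.0177 over all 22180 genes. In whole eyes, a change in the number of cells of one type cannot be told apart from a change of RNA per cell.

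Col12a1 read 6.72, 6.65, 6.35 and 6.23 in R6/2 arrays, against 6.06, 5.60, 5.28 and 5.19 in WT arrays at 9 weeks. Every R6/2 array lay above every WT array, although R6/2 replicate 4 and WT replicate 1 were close. The means were 6.49 ± 0.23 in R6/2 eyes and 5.53 ± 0.40 in WT eyes (SD, n = 4 each), a log2 difference of 0.95 (SE 0.18, 1.94-fold, limma adjusted p = 0.0735). At an adjusted p under 0.05, no gene of the 11090 was called in R6/2 by limma, while 1114 genes and 6 collagens had an unadjusted p under 0.05. The Col12a1 call was lost without WT replicate 4 (log2 difference 0.84, adjusted p = 0.222), without WT replicates 2 and 4 together (0.82, adjusted p = 0.483), and without R6/2 replicate 1, 2 or 3 (0.88 to 1.00, adjusted p 0.215 to 0.340).

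Among fibrillar collagens, Col1a2, the alpha-2 chain of type I collagen, read 7.08, 6.94, 7.06 and 6.76 in R6/2 arrays, against 6.61, 6.27, 5.85 and 5.88 in WT arrays. The groups did not overlap, the log2 difference was 0.81 (SE 0.21), and the limma adjusted p was 0.295. A separate probe set for Col1a2 averaged 5.62 in R6/2 eyes and 4.66 in WT eyes. Its partner Col1a1, the alpha-1 chain, read 7.63, 7.11, 7.41 and 6.94 in R6/2 arrays, against 7.05, 6.46, 6.40 and 6.12 in WT arrays. Here 3 R6/2 arrays lay above all WT arrays and R6/2 replicate 4 lay under WT replicate 1, with a log2 difference of 0.77 (SE 0.27, adjusted p = 0.386). Col1a2 was called in 10 of 28 alternative settings, the mean of its probe sets among them (0.88, adjusted p = 0.0751), as well as without WT replicate 1 (0.96, adjusted p = 0.146) or WT replicate 3 at 9 weeks (0.71, adjusted p = 0.128) or WT replicate 3 at 6 months (0.81, adjusted p = 0.168).

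The 250 bases before the transcription start of Col1a2, at chr6:4505368-4505617 on the plus strand of GRCm38.p6, are shown because it is the type I chain whose arrays separated in R6/2 and RefSeq's promoter table held it. Capitals mark CCAAT, the core of the binding site of the factor NF-Y, and GGGCGG, the GC box bound by Sp1, both searched on either strand.
Col1a2: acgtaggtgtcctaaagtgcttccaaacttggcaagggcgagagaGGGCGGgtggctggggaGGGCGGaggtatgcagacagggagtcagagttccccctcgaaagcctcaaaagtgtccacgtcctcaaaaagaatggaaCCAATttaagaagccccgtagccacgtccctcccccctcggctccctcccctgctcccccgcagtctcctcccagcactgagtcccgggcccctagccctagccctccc
CCAAT began 109 bases before the start, and the 2 GC boxes 205 and 188 bases before it. Over all 32851 promoter windows of this length, 33.8% held CCAAT, against 34.2% of the 38 collagen windows, which belong to 35 of the 44 genes. GGGCGG was in 32.7% of all windows and in 57.9% of the collagen windows. A match of letters is a description and no measured binding site.

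Of the other 9 fibrillar genes in R6/2 eyes, none was called. Col11a1, a chain of the minor fibrillar collagen of cartilage and vitreous, read 3.69, 3.63, 3.38 and 3.47 in R6/2 arrays and 3.43, 3.03, 3.25 and 2.98 in WT arrays. R6/2 replicate 3 lay under WT replicate 1, and the log2 difference was 0.37 (SE 0.14, adjusted p = 0.402). Col3a1, the type III chain of elastic tissues, differed by 0.27 (SE 0.26), and Col27a1 by 0.32 (SE 0.22). Col2a1 and Col24a1, both untested, were at -0.09 and -0.08. The class median was 0.20.

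FACIT genes other than Col12a1 were uneven in R6/2 eyes. Col9a1, a chain of the type IX collagen that coats type II fibrils in cartilage and vitreous, read 3.85, 3.65, 3.57 and 3.87 in R6/2 arrays, against 3.23, 3.25, 3.59 and 3.14 in WT arrays. WT replicate 3 lay within the R6/2 range and the other WT arrays below it, for a log2 difference of 0.43 (SE 0.13, adjusted p = 0.373). Without WT replicate 3 at 9 weeks Col9a1 was called (0.53, adjusted p = 0.0576), but it stayed uncalled in 24 of 28 alternative settings. Col9a2 and Col9a3, which pair with it in the type IX trimer, differed by 0.10 and 0.25. Col20a1 had the lowest log2 fold change of the tested collagens in R6/2. It read 3.28, 3.46, 2.93 and 3.46 in R6/2 arrays, against 3.60, 3.67, 3.94 and 3.49 in WT arrays. Its groups did not overlap, though R6/2 replicates 2 and 4 came just under WT replicate 4, and the log2 difference was -0.39 (SE 0.17, adjusted p = 0.441).

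Without overlap between groups stood 3 collagens in R6/2, Col12a1 and Col1a2 higher and Col20a1 lower. Of all tested genes, 4.86% were higher without overlap and 2.06% lower. The 6 basement membrane chains all had log2 fold changes above 0, from 0.005 (Col4a4) to 0.20 (Col4a6), with a median of 0.068. Col4a1 and Col4a2, the chains of nearly all basement membranes, differed by 0.08 (SE 0.13) and 0.04 (SE 0.14). The 3 tested type VI chains, Col6a1, Col6a2 and Col6a3, differed by 0.23, 0.25 and 0.20, none called. A separate, dimmer probe set for Col6a1 did not show this difference, at 3.43 in R6/2 eyes and 3.44 in WT eyes on average. Of the untested members, Col6a4 had the lowest value, -0.52, and 1 array lay far from the rest, with 3.82 in WT replicate 4, against 2.31 to 2.78 in the other WT arrays and 2.19 to 2.34 in R6/2 arrays.

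The short-chain network collagens Col8a1 and Col8a2, which build the hexagonal lattice of Descemet's membrane, the basement membrane of the corneal endothelium, differed by 0.26 (SE 0.17) and 0.28 (SE 0.13, adjusted p = 0.498) in R6/2. Col10a1, of hypertrophic cartilage, differed by 0.27 (SE 0.20). The 4 transmembrane collagens ran from 0.08 (Col13a1) to 0.27 (Col23a1). Among the multiplexins, Col18a1, the source of endostatin, was 0.23 above WT and Col15a1 0.22 below it, and neither passed the test. Col7a1, the anchoring fibril chain under the corneal epithelium, was not tested and differed by 0.02.

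**Figure D1:**
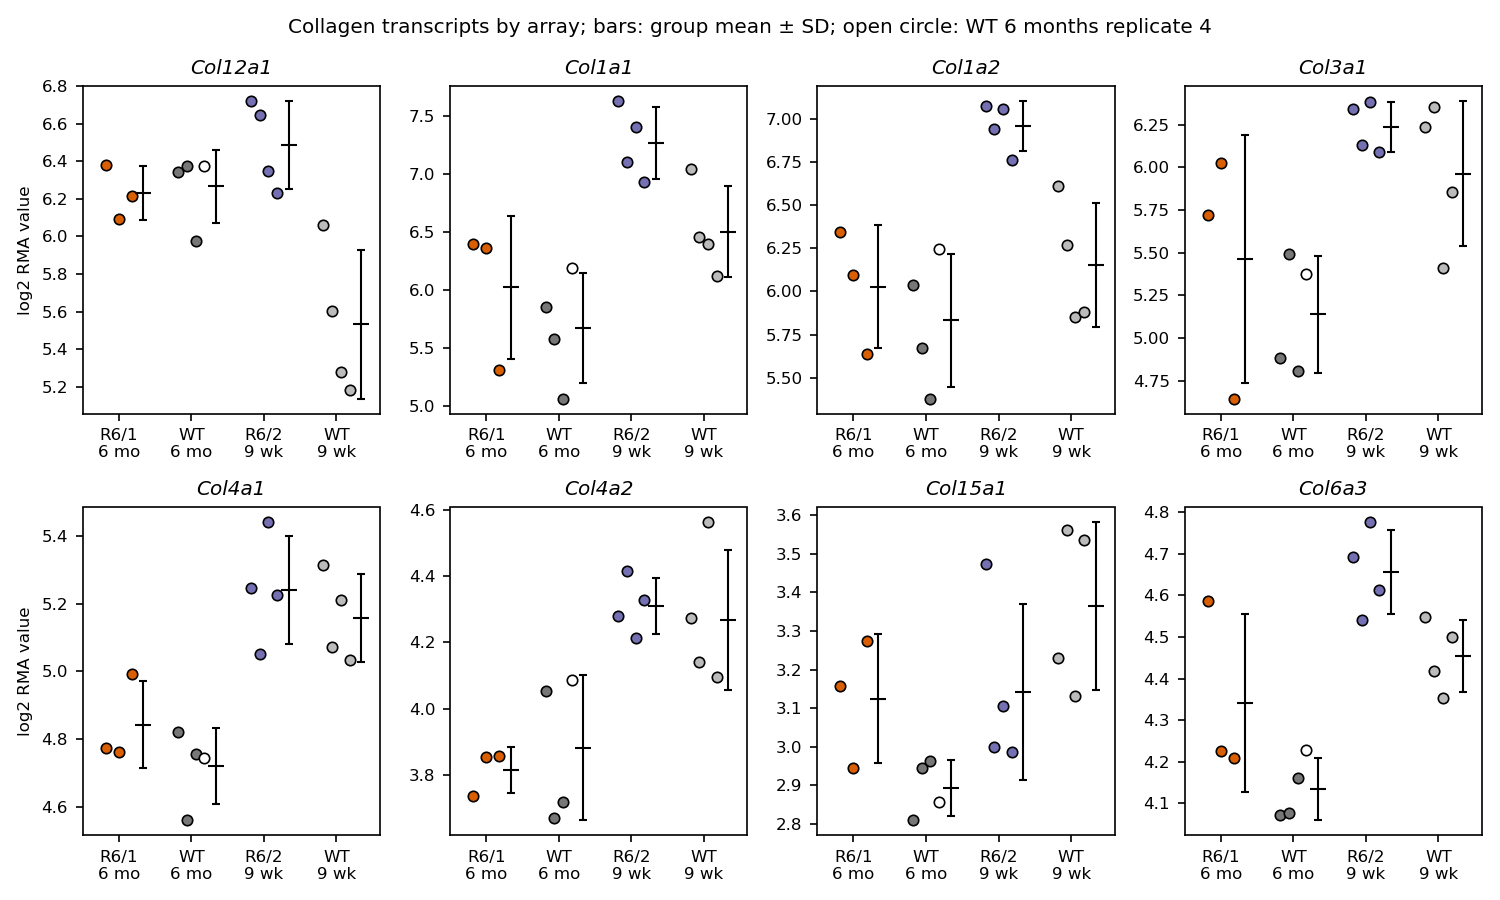
Log2 RMA values of 8 collagen genes in every array, one panel per gene, with groups in the order R6/1 and WT at 6 months, R6/2 and WT at 9 weeks. Circles are arrays, the open circle is the array labelled WT replicate 4 at 6 months, and bars are group means ± SD (n = 3 or 4). For Col12a1 the 4 R6/2 arrays lie between 6.23 and 6.72, above all WT arrays at 9 weeks, and for Col4a1 all 6-month arrays lie below all 9-week arrays.

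Markers of tissues in and around the eye were also read in R6/2. Among the lists given here, only the retina, muscle and tendon list means did not overlap between R6/2 and WT arrays. The mean of the 3 retina markers was 7.65 to 7.76 in R6/2 arrays and 8.73 to 9.44 in WT arrays. All 3 were below 0, from -4.14 for Opn1sw, which was called, to -0.05. All 8 extraocular muscle markers were below 0, with a median of -1.31, and the mean of the list was 5.55 to 6.92 in R6/2 arrays and 7.42 to 7.94 in WT arrays. One of them was called, the fast-fibre actinin gene Actn3 (-1.65, adjusted p = 0.0735), and the call was lost without R6/2 replicate 2, 3 or 4. All 5 tendon markers were above 0, with means of 4.42 to 4.62 in R6/2 arrays and 3.67 to 4.28 in WT arrays. Tnmd, the tendon membrane protein tenomodulin, was called at 1.03 (SE 0.21, adjusted p = 0.106), and the call was lost without WT replicate 4 or R6/2 replicate 1, 2 or 3. All 4 fibroblast markers, Dcn among them, were above 0 (0.27 to 0.52), with list means of 6.17 to 6.39 in R6/2 arrays and 5.78 to 6.21 in WT arrays. The 4 measured gland markers had list means of 4.33 to 6.16 in R6/2 arrays and 4.86 to 8.18 in WT arrays, and the endothelial list means were 4.95 to 5.40 in R6/2 arrays and 5.33 to 5.56 in WT arrays. All 4 adipocyte markers were below 0, with a median of -0.64 and list means of 3.28 to 4.35 in R6/2 arrays and 3.29 to 4.68 in WT arrays. All 3 lens markers were above 0, with a median of 0.20, and their list means were 8.96 to 9.08 in R6/2 arrays and 8.34 to 9.01 in WT arrays. The part of these tissues in the collagen values was not tested.

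In eyes of R6/1 mice at 6 months, 0 of the 33 tested collagens were called in either direction, against 0.018% of all tested genes called lower and 0.0361% called higher. With limma, 345 genes and 1 collagen, Col20a1, had an unadjusted p under 0.05. Over the 44 collagens, 27 log2 fold changes were above 0 and 17 below, with a median of 0.048 against 0.0067 over all genes. Without WT replicate 4, 0.37% of all tested genes were called lower and 0.108% higher, 0 collagens among them, with a median of 0.016 over the 44. Blocking by replicate number in R6/1 gave 57 genes called lower and 19 higher, again with 0 collagens.

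The 3 collagens with the lowest p in R6/1 were Col20a1, Col4a6 and Col6a3. Col20a1 read 2.87, 3.20 and 3.46 in R6/1 arrays, against 3.46, 3.72, 3.81 and 3.46 in WT arrays. R6/1 replicate 3 met the lowest WT arrays and the other R6/1 arrays lay below them, with a log2 difference of -0.43 (SE 0.18, adjusted p = 1.00), and -0.48 without WT replicate 4. Col4a6, the basement membrane chain that pairs with Col4a5, read 3.08, 3.29 and 3.33 in R6/1 arrays and 2.96, 2.97, 3.15 and 2.98 in WT arrays. WT replicate 3 alone lay within the R6/1 range, and the difference was 0.22 (SE 0.14), or 0.21 without WT replicate 4. Col6a3, the longest type VI chain, read 4.59, 4.23 and 4.21 in R6/1 arrays and 4.07, 4.08, 4.16 and 4.23 in WT arrays. Here R6/1 replicate 1 stood alone above the rest, and the difference was 0.21 (SE 0.13), or 0.24 without WT replicate 4. That WT array, at 4.23, was the only WT array within the R6/1 range.

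The genes with the largest log2 differences in R6/2 were also read in R6/1. Col12a1 read 6.38, 6.10 and 6.22 in R6/1 arrays and 6.34, 6.38, 5.98 and 6.37 in WT arrays, a difference of -0.04 with a 95% confidence interval of -0.46 to 0.38. Without WT replicate 4 it was 0.00. Col1a1 read 6.40, 6.36 and 5.32 in R6/1 arrays and 5.85, 5.58, 5.07 and 6.19 in WT arrays. R6/1 replicate 3 lay far below its group, and the difference was 0.35 (SE 0.30), or 0.53 (SE 0.30) without WT replicate 4. Col1a2 differed by 0.19, with an interval of -0.29 to 0.68, and by 0.33 (SE 0.23) without WT replicate 4. Its separate probe set averaged 3.96 in R6/1 eyes and 3.94 in WT eyes. With all arrays kept, only Col10a1 did not overlap, at 2.59, 2.52 and 2.68 in R6/1 arrays and 2.49, 2.17, 2.33 and 2.27 in WT arrays. Of all tested genes, 1.15% were higher without overlap and 1.9% lower. Without WT replicate 4, Col6a3 (higher) and the untested Col4a5 (lower) did not overlap either. Col4a5 then read 4.15 to 4.19 in R6/1 arrays and 4.25 to 4.43 in WT arrays. The share of all tested genes was not counted without that array.

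Muscle markers were also low in R6/1, with 8 of 8 below 0 and a median of -0.42, whereas 2 of 5 tendon markers and 3 of 4 fibroblast markers were above 0. The tendon list means were 4.30 to 4.32 in R6/1 arrays and 4.06 to 4.56 in WT arrays. The muscle list means were 6.23 to 7.36 in R6/1 arrays, against 7.53 to 8.11 in WT replicates 1, 2 and 3 but 5.91 in WT replicate 4. Without WT replicate 4 the 8 muscle markers had a median of -0.87, 4 of 4 adipocyte markers were below 0 with a median of -0.30, and the counts above 0 of the tendon and fibroblast lists were the same. All R6/1 arrays lay below those 3 WT arrays in the muscle list, and their part in the collagen values was not tested.

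The difference between the models was tested by subtracting the R6/2 log2 fold change from that of R6/1. In limma, 0 of the 11090 tested genes were called at an adjusted p under 0.20, so 0% of the background and 0 collagens, while 302 genes and 3 collagens had an unadjusted p under 0.05. These were Col12a1 at -0.99 (SE 0.27, 95% interval -1.56 to -0.42, adjusted p = 1.00), Col11a1 at -0.52 (SE 0.21) and Col9a1 at -0.49 (SE 0.20). For Col1a2 the difference was -0.61 with an interval of -1.27 to 0.05, and for Col1a1 -0.41 with an interval of -1.26 to 0.44. Without WT replicate 4 at 6 months the differences were -0.95 (SE 0.29) for Col12a1, -0.47 (SE 0.31) for Col1a2 and -0.24 (SE 0.40) for Col1a1. The models also differ in age and in the WT arrays they are set against.

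**Figure D2:**
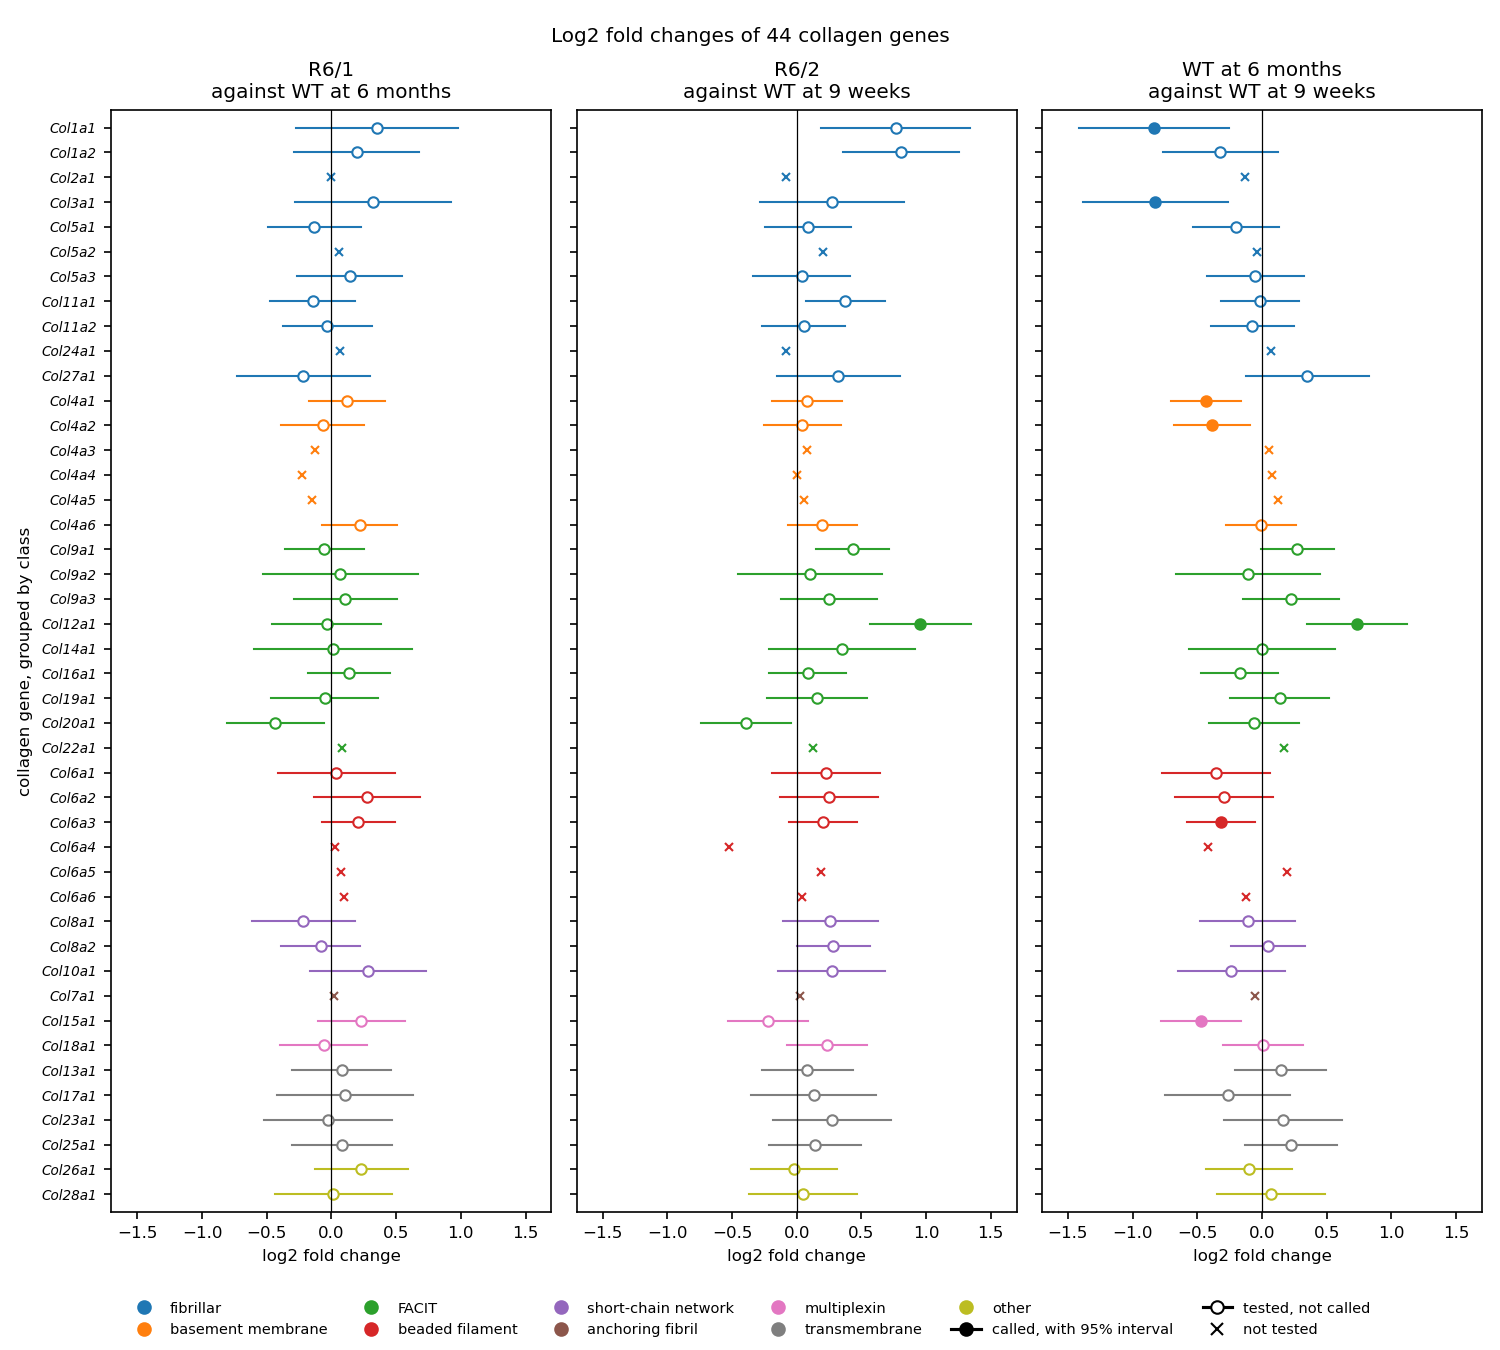
Log2 fold changes of the 44 collagen genes, one row per gene, coloured by class, with R6/1 against WT in the first panel, R6/2 against WT in the next, and older against younger WT eyes in the last. Circles with 95% intervals are tested genes, filled where called, and crosses are genes not tested. The filled circles are 0 in R6/1, Col12a1 in R6/2, and 7 genes between the WT ages, 6 of them left of 0.

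Between WT eyes of 6 months and of 9 weeks, 7 of the 33 tested collagens were called, 6 lower and 1 higher at 6 months. The 6 were 18.2% of those tested, against 11.5% of all tested genes called lower, and the 1 was 3.03%, against 7.74% called higher. The lower ones were the fibrillar chains Col1a1 and Col3a1, the basement membrane chains Col4a1 and Col4a2, the multiplexin Col15a1 and the type VI chain Col6a3, and the higher one was Col12a1. The older WT mice were littermates of R6/1 and the younger ones of R6/2, so age and cohort cannot be told apart.

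Col1a1 read 5.85, 5.58, 5.07 and 6.19 in WT arrays at 6 months, against 7.05, 6.46, 6.40 and 6.12 at 9 weeks. The lowest 9-week array lay just under the highest 6-month array, and the others were apart, for 0.561-fold at 6 months (log2 -0.83, SE 0.27, adjusted p = 0.0989). That 6-month array was WT replicate 4. Without it the ages did not overlap, and the log2 difference was -1.01 (SE 0.28, limma adjusted p = 0.0925). Col3a1, which joins type I collagen in thin fibrils, read 4.89, 5.49, 4.81 and 5.37 at 6 months, against 6.23, 6.35, 5.41 and 5.85 at 9 weeks. Only WT replicate 3 at 9 weeks fell into the 6-month range, and the log2 difference was -0.82 (SE 0.26, adjusted p = 0.0931). Col1a2 was -0.32 (SE 0.21, adjusted p = 0.405) and was not called. Its separate probe set averaged 3.94 in WT eyes at 6 months and 4.66 at 9 weeks. Those arrays did not overlap (highest 4.09 at 6 months, lowest 4.28 at 9 weeks).

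The 250 bases before the start of Col3a1, at chr1:45311288-45311537 on the plus strand of GRCm38.p6 in RefSeq's table, are shown beside those of Col1a2 because both fibrillar genes were low at 6 months when both genotypes were averaged. Capitals mark TATAAA, the letters of the TATA box motif, as a match of letters only.
Col3a1: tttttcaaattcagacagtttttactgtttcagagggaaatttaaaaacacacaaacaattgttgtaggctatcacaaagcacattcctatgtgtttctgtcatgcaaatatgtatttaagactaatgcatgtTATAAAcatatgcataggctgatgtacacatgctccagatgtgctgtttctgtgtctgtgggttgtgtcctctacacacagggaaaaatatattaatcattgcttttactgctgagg
TATAAA began 117 bases before the start, and neither CCAAT nor GGGCGG was in this window. TATAAA was in 12.4% of all windows and 13.2% of the collagen windows on either strand.

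Col4a1 read 4.82, 4.56, 4.76 and 4.75 in WT arrays at 6 months, against 5.31, 5.07, 5.21 and 5.03 at 9 weeks. No array overlapped, and the log2 difference was -0.44 (SE 0.13, adjusted p = 0.0746). Col4a2 read 4.05, 3.67, 3.72 and 4.09 at 6 months, against 4.27, 4.14, 4.56 and 4.09 at 9 weeks. The highest 6-month array and the lowest 9-week array met at 4.09 without crossing, for -0.39 (SE 0.14, adjusted p = 0.127). That 6-month array was WT replicate 4, and without it the log2 difference was -0.45 (SE 0.15, limma adjusted p = 0.131). Both chains wind into the same trimer, and in RefSeq the genes lie head to head on chromosome 8, with starts at 11312826 (minus strand) and 11312805 (plus strand) of GRCm38.p6. The other 4 type IV chains ran from -0.01 (Col4a6) to 0.12 (Col4a5).

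Col15a1, a multiplexin of basement membrane borders around vessels and muscle, read 2.81, 2.94, 2.96 and 2.86 in WT arrays at 6 months, against 3.23, 3.56, 3.13 and 3.54 at 9 weeks. The ages did not overlap, and the difference was -0.47 (SE 0.15, adjusted p = 0.0848). Col6a3 read 4.07, 4.08, 4.16 and 4.23 at 6 months, against 4.55, 4.42, 4.35 and 4.50 at 9 weeks. The gap between the ages was narrow, and the difference was -0.32 (SE 0.12, adjusted p = 0.146). Its partners Col6a1 and Col6a2 were -0.36 (SE 0.20) and -0.30 (SE 0.18), not called. A separate, dimmer probe set for Col6a1 averaged 2.76 at 6 months and 3.44 at 9 weeks. Its arrays did not overlap, with a highest of 3.09 at 6 months and a lowest of 3.14 at 9 weeks. Lower without overlap stood 4 collagens, Col4a1, Col4a2, Col15a1 and Col6a3, and 0 stood higher, against 5.36% and 3.18% of all tested genes. At an adjusted p under 0.05, 0 collagens were called lower and Col12a1 alone higher, against 1.59% and 0.902% of all tested genes.

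Col12a1 ran the other way. It read 6.34, 6.38, 5.98 and 6.37 in WT arrays at 6 months, against 6.06, 5.60, 5.28 and 5.19 at 9 weeks. WT replicate 1 at 9 weeks lay above replicate 3 at 6 months, and the difference was 0.73 (SE 0.18, adjusted p = 0.0452). This comparison and that of R6/2 share the 4 WT arrays at 9 weeks. R6/1 arrays (6.10 to 6.38) and R6/2 arrays (6.23 to 6.72) lay in or above the range of WT at 6 months, and 3 of the 4 WT arrays at 9 weeks lay below every other array. Without WT replicates 2 and 4 at 9 weeks the difference between the ages was 0.60 and was not called (adjusted p = 0.295).

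With WT replicate 4 of the older cohort left out, the same 6 lower and 1 higher were called. Without WT replicates 2 and 4 at 9 weeks, the pair of highest gland transcripts, 1 collagen was called lower and 0 higher, while 1.55% of all tested genes were lower and 0.775% higher. Without WT replicate 2 alone 2 were called lower, while 4.11% of all tested genes were. Single arrays decided 4 of the 6 calls. Col3a1 was lost without WT replicate 2 at 9 weeks (-0.69, adjusted p = 0.241), and Col15a1 without WT replicate 2 or 4 at 9 weeks (-0.41 in both, adjusted p 0.230 and 0.207). Col4a2 was lost without WT replicate 2 at 6 months (-0.32) or WT replicate 2 or 3 at 9 weeks (-0.43 and -0.29), at adjusted p of 0.202 to 0.272. Col6a3 was lost without WT replicate 1 or 2 at 6 months or WT replicate 1, 2 or 4 at 9 weeks, with log2 differences of -0.33 to -0.29 and adjusted p of 0.243 to 0.270. Col1a1 and Col4a1 stayed called without any single array. Gland list means were 4.38 to 4.79 in WT arrays at 6 months and 4.86 to 8.18 at 9 weeks, and the tendon markers Tnmd, Scx and Thbs4 and the pigment epithelium markers Rpe65 and Tyrp1 were called higher at 6 months, though none of these 5 without WT replicates 2 and 4 at 9 weeks. Their part in the collagen values was not tested.

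When both genotypes were averaged at each age, 12 collagens were called lower at 6 months and 0 higher, against 15.6% and 10.3% of all tested genes. This contrast sets R6/1 and WT at 6 months against R6/2 and WT at 9 weeks, so it mixes age with model. By class, 5 of 8 tested fibrillar genes, 2 of 3 basement membrane genes, 3 of 3 type VI genes, 1 of 3 short-chain genes and 1 of 2 multiplexins were lower, with 0 of 8 FACIT genes. Col1a1 was 0.487-fold (log2 -1.04, SE 0.20, adjusted p = 0.0065) and Col1a2 0.647-fold (adjusted p = 0.0232). The 7 arrays at 6 months and the 8 at 9 weeks did not overlap for Col4a1, at 4.56 to 4.99 in the 6-month arrays against 5.03 to 5.44 in the 9-week arrays, nor for Col4a2. Of all tested genes, 1.78% were lower at 6 months without overlap of these 15 arrays and 0.721% higher. Without WT replicate 4 at 6 months, or without WT replicates 2 and 4 at 9 weeks, 10 collagens were called lower, against 14.8% and 12% of all tested genes.

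Genes that act on collagens were described in 5 lists. Of 18 measured genes of collagen modification and folding, 5 of 13 tested were lower in WT at 6 months and 0 higher, where 11.5% of all tested genes were lower and 7.74% higher. Serpinh1, the collagen chaperone HSP47, read 4.25, 3.99, 3.77 and 4.09 at 6 months, against 4.81, 4.63, 4.73 and 4.61 at 9 weeks. The ages did not overlap, for a log2 difference of -0.67 (SE 0.14, adjusted p = 0.0279). Colgalt1, which adds galactose to hydroxylysine, was -0.55 (adjusted p = 0.0931), Plod1, a lysyl hydroxylase, -0.49, P4hb, a subunit of prolyl 4-hydroxylase, -0.49, and Crtap, a partner of prolyl 3-hydroxylase, -0.41. P4hb read 6.60, 7.0, 6.65 and 6.73 at 6 months, against 6.99, 7.43, 6.63 and 7.90 at 9 weeks. Its difference was -0.27 without WT replicate 4 at 9 weeks and -0.06 without WT replicates 2 and 4, not called in either fit. Of the 16 genes of the 5 lists called between the WT ages, 4 were called without WT replicates 2 and 4 at 9 weeks (Serpinh1, Itgb1, Dcn and Aspn), and 5 without any single array (Serpinh1, Dcn, Ogn, Aspn and Podn).

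Of 8 tested genes of procollagen processing and crosslinking, Loxl1, a lysyl oxidase, was lower (-0.59, adjusted p = 0.139) and Adamts3, a procollagen N-proteinase, higher (0.56, adjusted p = 0.138) in WT at 6 months. Each was 12.5% of those tested, against 11.5% of all tested genes called lower and 7.74% called higher. Ctsk, the collagen-cleaving cathepsin K, was the 1 called of 9 tested degradation genes (0.40, adjusted p = 0.178), and Itgb1, the beta chain of collagen-binding integrins, the 1 of 5 tested receptors (0.44, adjusted p = 0.144). Both were higher at 6 months, where 7.74% of all tested genes were higher.

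The small leucine-rich proteoglycans, which bind fibrils and set their spacing, were split in WT at 6 months, with 5 of 12 tested called higher and 2 lower, against 7.74% and 11.5% of all tested genes. Dcn (decorin) read 9.30, 9.04, 9.01 and 9.04 at 6 months, against 8.70, 8.44, 8.33 and 8.61 at 9 weeks, for 0.57 (SE 0.13, adjusted p = 0.038). Every 6-month array was higher. Ogn (osteoglycin) was 0.58, Aspn (asporin) 0.80, Lum (lumican, a keratocyte product) 0.43 and Epyc 0.47, while Podn was -0.96 and Prelp -0.49. Podn read 5.27 and 5.62 in WT replicates 2 and 4 at 9 weeks, against 4.28 in each of the other WT arrays at 9 weeks, and its difference was -0.38 and not called without that pair.

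In R6/2, 0 genes of these 5 lists were called. Proteoglycans were above WT for 11 of 12 genes, with a median of 0.49. Ogn read 8.09, 8.12, 7.85 and 8.11 in R6/2 arrays, against 7.67, 7.48, 7.68 and 7.37 in WT arrays, and did not overlap (0.49, SE 0.13, adjusted p = 0.295). Dcn, also a fibroblast marker, differed by 0.49 (SE 0.13, adjusted p = 0.295). Of 14 measured processing genes, 12 were above 0, with Adamts3 at 0.59 (adjusted p = 0.386). Folding genes had a median of 0.083, with 14 of 18 above 0, degradation genes 0.097 and receptors 0.12. In R6/1, 0 genes of the 5 lists were called and the medians lay between 0.019 and 0.103.

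**Figure D3:**
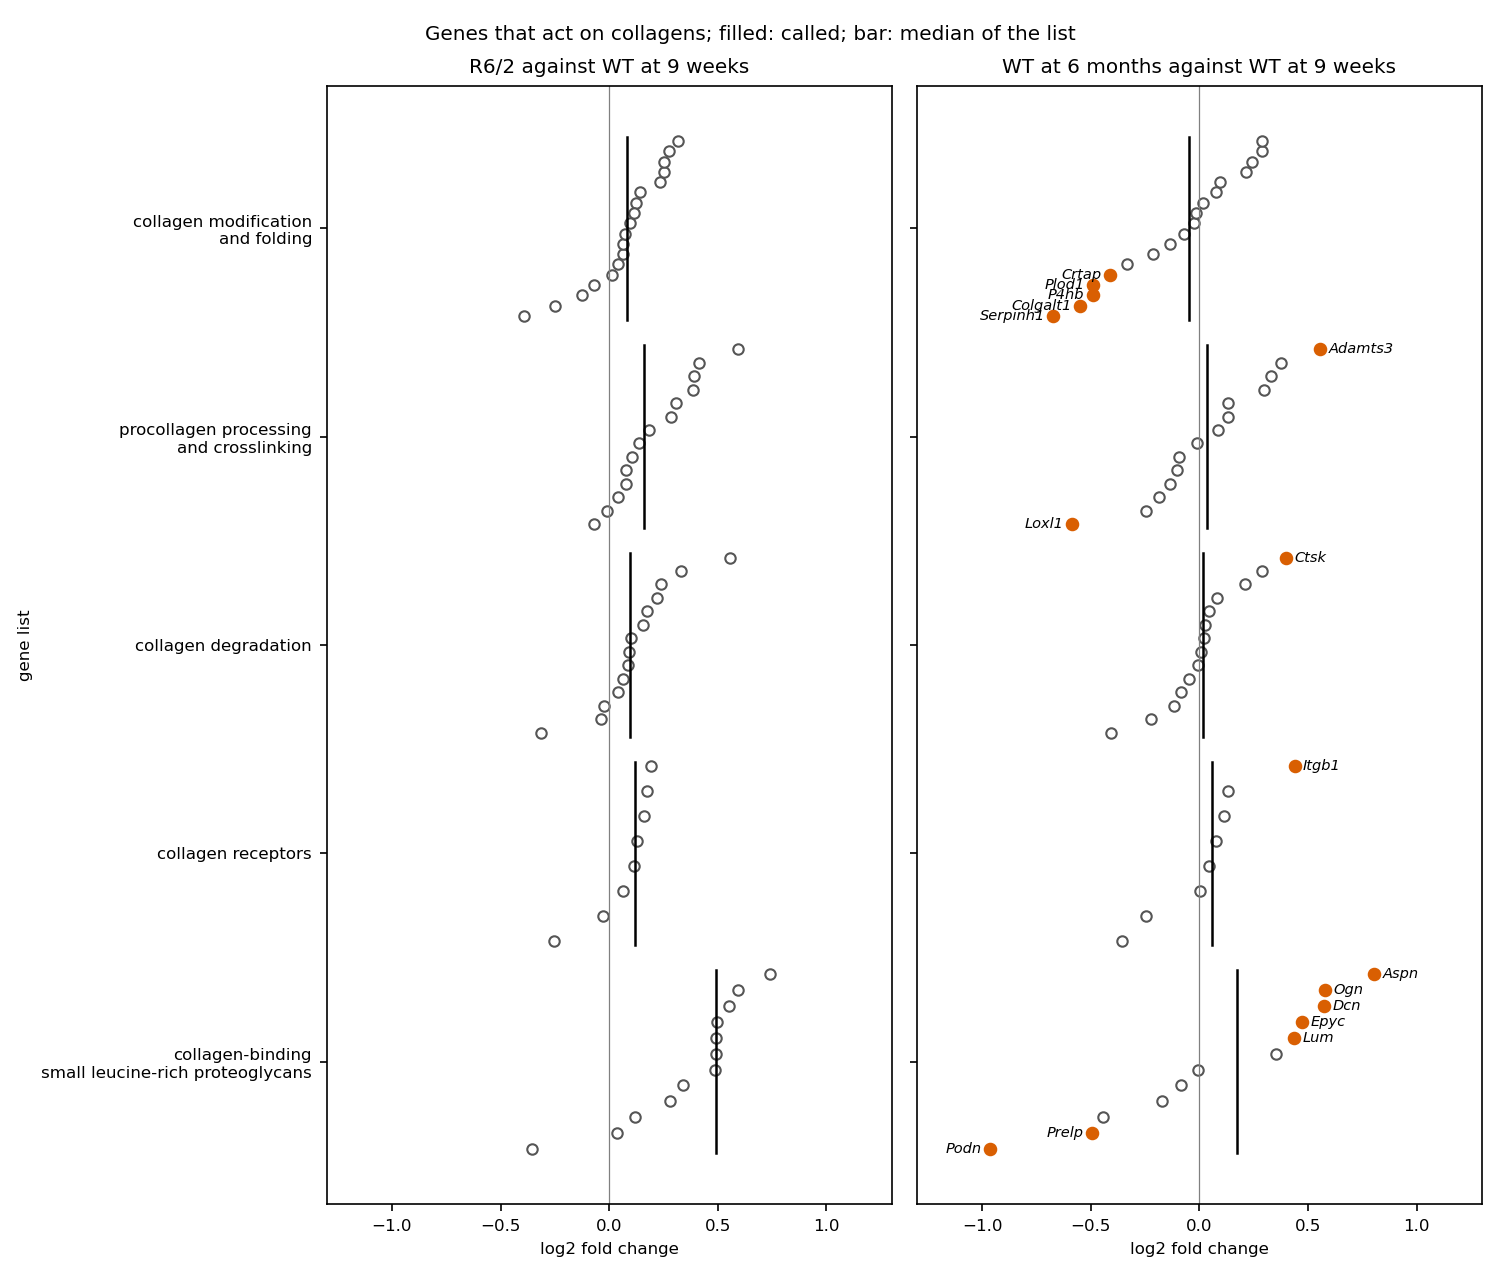
Log2 fold changes of genes of 5 collagen-related lists, for R6/2 against WT on the left and for WT eyes of 6 months against those of 9 weeks on the right. Circles are genes, filled and named where called, and vertical bars are list medians. On the left 0 circles are filled and the proteoglycan median is 0.49, and on the right 5 folding genes are filled to the left of 0 and 5 proteoglycans to the right of it.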

How the data were processed

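The authors hybridised biotin-labelled cDNA from pooled eye RNA to Affymetrix Mouse Gene 2.1 ST arrays and processed them with RMA in the affy library, and the deposited table holds log2 values of 41345 probe sets. The probe-to-gene table gave 1 symbol for 23521 probe sets, several for 1820 and none for 16004. Probe sets with 1 symbol were kept, and for 1082 genes with several the one of the highest mean was used. No background levels or probe intensities are in the table, and the number of arrays limits the precision. Groups were taken from the labels. limma 3.58.1 in R 4.3.3 fitted 4 group means, with empirical Bayes moderation, on the 50% of genes with the wider interquartile range, and p-values were adjusted over all 11090 genes tested. The code was tested on simulated data. Every collagen may be named. Array values are given for called members, or for the 3 of lowest p where fewer were called, and other members shown array by array were added after their values were seen. From each other list, up to 4 genes of lowest p may be named. Where a list had over 4 called genes, all are named, which was decided after seeing them. The members and lists were chosen with earlier results of these data known. Promoter windows came from RefSeq's table for GRCm38.p6. The labels name no pairing. Same-numbered R6/1 and WT arrays deviated from their group means together (r = 0.41, 0.34 and 0.75 over genes). Different-numbered arrays gave r of 0.22 to 0.31 among R6/1 replicates 1 and 2 and WT replicates 1, 2 and 4. They gave -0.55 to -0.36 where a replicate 3 met another number. Both replicates 3 were of narrow interquartile range, so the values cannot decide whether the numbers pair arrays. The replicate block at 6 months was run as an alternative only. Alternatives changed the filter, threshold, arrays, probe sets, normalization, moderation, weights and replicate block. Leaving out WT replicates 2 and 4 at 9 weeks, and the 2 age averages without doubted arrays, was added after seeing the data.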

Additional observations from a re-analysis of the deposited data

Results flagged for a closer look

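In 132 groups of 4 arrays, 1 for each collagen and group of that size, 10 had an array far from the other 3 by Dixon's ratio, where chance gives about 1 in 20. WT replicate 3 at 6 months, the array of narrowest interquartile range, accounted for 6 of them. It was low for Col12a1 (5.98, the others 6.34 to 6.38) and high for Col22a1 (3.0, the others 2.55 to 2.61), Col27a1 (4.03, the others 3.35 to 3.42), Col28a1 (2.64, the others 1.76 to 1.90), Col4a6 (3.15, the others 2.96 to 2.98) and Col9a3 (4.11, the others 3.57 to 3.66). WT replicate 3 at 9 weeks, also of narrow range, was high for Col18a1 (4.0, the others 3.51 to 3.56) and Col4a4 (3.61, the others all at 3.52). R6/2 replicate 3 was low for Col2a1 (4.05, the others 4.44 to 4.49) and high for Col4a5 (4.36, the others 4.21 to 4.22).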

How the results depend on the processing

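In R6/1 against WT and in the difference between the models, 0 collagens were called in every alternative run. In R6/2 the count called higher was 1 and became 0 at an adjusted p under 0.05 or without WT replicates 2 and 4 at 9 weeks, 2 with only the arrays compared, with the mean of probe sets or with quantile normalization, 4 with the interquartile range as a covariate, 9 without the 3 arrays of narrowest range and 10 with array weights. The share of all tested genes called higher was 0.0721%, and in these settings 0%, 0.018%, 0.271%, 0.0812%, 0.631%, 3%, 8.83% and 8.9%, in the same order. The count called lower was 0 and became 1 with array weights (9.98% of all tested genes lower) or the range as a covariate (1.97%). Leaving out 1 array at a time gave 0 to 3 higher (3 without WT replicate 1 or WT replicate 3 at 9 weeks, where 0.676% and 2.42% of all tested genes were higher, 2 without WT replicate 3 at 6 months, and 0 without WT replicate 4 at 9 weeks or R6/2 replicate 1, 2 or 3). The cause was not tested.

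Between the WT ages, the 6 lower became 0 at an adjusted p under 0.05, 1 with only the arrays compared or without WT replicates 2 and 4 at 9 weeks, 12 with both genotypes averaged, and 10 in that average without doubted arrays. The 1 higher became 2 with a filter on dim genes, median centring, quantile normalization or array weights, 3 without the 3 narrow arrays, and 0 in the averages of both genotypes or without WT replicates 2 and 4 at 9 weeks. Leaving out 1 array gave 2 to 7 lower, with 2 without WT replicate 2 at 9 weeks, and 1 to 3 higher, with 3 without WT replicate 3 at 9 weeks. Of all tested genes, 11.5% were called lower, against 1.59% at an adjusted p under 0.05 and 15.6% with both genotypes averaged. The shares called higher were 7.74%, 0.902% and 10.3%, in the same order. The other counts of this paragraph are not set against such a share here, so they cannot be read as particular to collagens.

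Same-numbered R6/2 and WT arrays had deviations from their group means that correlated at 0.11, -0.29, -0.22 and 0.26. Whether these numbers pair arrays was not tested. The replicate number as a block gave 3 collagens called higher in R6/2 and changed no other count of collagen calls, and 6 proteoglycans and 1 processing gene were then called higher in R6/2, against 0 of each, with 2.07% of all tested genes called higher. Of named members, 42 values in all alternatives lost the call, 14 gained it and 0 changed direction. Values repeat between arrays (3.46 for Col20a1 in 5 of 15), which limits their resolution. Repeats were not confined to low values, as 10.07 for the corneal marker Krt12 shows. They also carry some values named above, such as 3.15 for Col4a6 and 3.59 for Col9a1. The flag of Col4a4 rests on the repeated 3.52.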
